A study of Mus musculus with 12 samples.

Results

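Subcutaneous fat (SAT) of C57BL/6 mice was compared, gene by gene, between preparations of putative adipose progenitors (AP) and the unfractionated tissue (AT). The comparison took the 3 arrays of AP from SAT against the 3 arrays of unfractionated AT from SAT, which were 6 of the 12 arrays in the series. The other 6 arrays held the same preparations from visceral fat (VAT), the perigonadal depot. Of 41345 probe sets, those that the array annotation gives to exactly 1 gene were used, and a gene with several was represented by the brightest of them on average over 12 arrays, so that 22180 genes were described. SAT was the inguinal depot. AP were what remained of its stromal vascular fraction, the non-adipocyte cells that enzymes release from the tissue, after magnetic beads had removed blood cells marked as lineage-positive and CD31-positive endothelial cells. AP were therefore defined by what was taken away and not by a progenitor antigen, and material of several mice went into a preparation. AT had neither been dissociated nor depleted, so that dissociation and progenitor identity cannot be told apart in this comparison. No treatment, genetic alteration, sex or age was stated for any group. Which animals gave each biological replicate was not stated either, so a p-value refers to the spread of these samples alone, and precision is limited by their small number.

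White fat consists by volume of adipocytes, large cells filled by a droplet of triglyceride, but many of its nuclei lie in the stroma between them. The stroma holds fibroblast-like progenitors marked by the platelet-derived growth factor receptors, the endothelium and mural cells of its vessels, macrophages and other leukocytes. New adipocytes arise from the progenitors through a cascade of transcription factors that ends in PPAR-gamma and C/EBP-alpha. In the inguinal depot of mice some adipocytes can also take on a thermogenic, beige character, with many mitochondria and the uncoupling protein UCP1.

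Values are log2 intensities after the robust multi-array average (RMA), so a difference of 1 is a 2-fold difference. Tests are those of limma over all 12 arrays with Benjamini-Hochberg adjustment over the 22180 genes, and a gene is said to have risen or fallen in AP where its adjusted p was under 0.05. SE is the standard error of the log2 difference. In these terms 3571 genes rose (16.1% of all tested) and 3615 fell (16.3%), and 1030 rises (4.64%) and 1175 falls (5.30%) were at least 2-fold. At least 32-fold rises were found for 9 genes and falls of that size for 21. All AP arrays lay above all AT arrays for 23.5% of genes and below them for 21.1%, so a lack of overlap was common. Arrays of 1 group correlated at 0.9878 to 0.9936 across genes, which are not independent replicates, and AP with AT at 0.9175 to 0.9353. RMA gives all arrays the same distribution of probe intensities, so it cannot show a shift of all genes. With arrays shifted so that 11 housekeeping genes had equal medians, the difference of the median gene became 0.68, with 16281 genes higher and 939 lower, and after a shift to their equal mean it became 0.33, with 11379 higher and 2151 lower. Of the same 11 housekeeping genes, 5 had themselves fallen in AP, among them the succinate dehydrogenase subunit Sdha by 1.76 and the purine salvage enzyme Hprt by 1.35 on the log2 scale. Another 2 had risen and 4 did not pass, and the highest difference among the 11 was 0.81. The median of their own differences was 0.20, in the direction of a rise, whereas equalising their array medians moved the median gene upward. All differences below are relative to the RMA scale. In bulk RNA, fewer cells of a type and less RNA per cell cannot be told apart.

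The rises were led by immediate early genes, which cells transcribe within minutes of a stimulus without making new protein first. Fos, a subunit of the AP-1 transcription factor, was at 10.72, 10.64 and 10.88 in AP and 4.57, 4.85 and 4.51 in AT, a 68.8-fold difference (log2 6.10, SE 0.139, adjusted p = 1.76e-13). The groups were far apart, and each group spanned less than 1 log2 unit. Its relative Fosb was at 11.44, 11.51 and 11.55 in AP and 5.36, 5.57 and 5.35 in AT (log2 difference 6.07, SE 0.138). The zinc finger factor Egr1 was at 11.11, 11.20 and 11.26 in AP and 6.29, 5.77 and 5.25 in AT (log2 difference 5.42, SE 0.188). AT varied more here, with replicate 1 highest and replicate 3 lowest. The orphan nuclear receptor Nr4a1 showed this most: it was at 11.50, 11.33 and 11.45 in AP and 7.67, 5.38 and 5.31 in AT, so AT replicate 1 lay more than 2 log2 units above the other AT arrays while staying below every AP array (log2 difference 5.31, SE 0.428). Of the list of immediate early genes, mostly transcription factors, 21 of 21 measured members rose, with a median log2 difference of 3.33. Over all genes tested, 16.1% rose and the median was 0.03. Gene lists here and below were chosen with earlier results of these data known, so their counts are descriptions and not tests. Further members were Jun (4.51), Junb (4.17), Atf3 (4.11) and Nr4a3 (4.0).

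Genes that switch such responses off again had risen as well. Zfp36, which destabilises mRNAs of cytokines, was at 11.94, 11.96 and 12.05 in AP and 7.57, 7.17 and 7.69 in AT, and its difference was 4.51 (SE 0.145, adjusted p = 4.57e-12). Socs3, an inhibitor of JAK kinases, was at 8.77, 8.73 and 9.03 in AP and 5.37, 5.10 and 5.21 in AT (log2 difference 3.62, SE 0.123). No AP array overlapped an AT array for either gene, but both were among the largest rises, which were chosen among genes without overlap. Of 20 measured feedback inhibitors of stress signalling, 17 rose and 0 fell (1 fell without AT replicate 3) at a median of 2.00, including the growth arrest gene Gadd45b (3.31). The list also holds Nfkbiz (3.17), a nuclear regulator of NF-kappaB signalling that is not only an inhibitor.

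Secreted mediators of inflammation rose too, and for some of them AP replicate 3 stood above the other AP arrays. The prostaglandin synthase Ptgs2 was at 11.68, 11.26 and 11.46 in AP and 6.54, 4.87 and 5.01 in AT (log2 difference 5.99, SE 0.307). The cytokine Il6 was at 9.21, 9.11 and 9.92 in AP and 3.49, 3.69 and 3.13 in AT; all its AT values lay under 4.1, the 40th percentile of all intensities that is taken here as near background, so its difference of 5.98 (SE 0.197) is a fitted value only. The hyaluronan synthase Has1 was at 8.61, 8.51 and 9.60 in AP and 3.45, 4.16 and 3.76 in AT, also with an AT mean near background (log2 difference 5.12, SE 0.262). For Il6 and Has1 AP replicate 3 was the highest array. The long pentraxin Ptx3, a soluble pattern recognition protein, was at 8.0, 8.04 and 10.09 in AP and 4.86, 4.89 and 4.70 in AT, which put AP replicate 3 about 2 log2 units above the other AP arrays (log2 difference 3.89, SE 0.384). Of 23 measured mediators 15 rose, at a median of 1.97, among them Tnfaip6 (4.73), a hyaluronan-binding protein, and the chemokines Cxcl1 (4.15), Ccl2 (3.81) and Ccl7 (3.49). The chemokine Ccl8 went the other way: it was at 6.38, 6.66 and 7.13 in AP and 9.0, 8.35 and 9.46 in AT and fell by 2.21 on the log2 scale (SE 0.256).

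**Figure D1:**
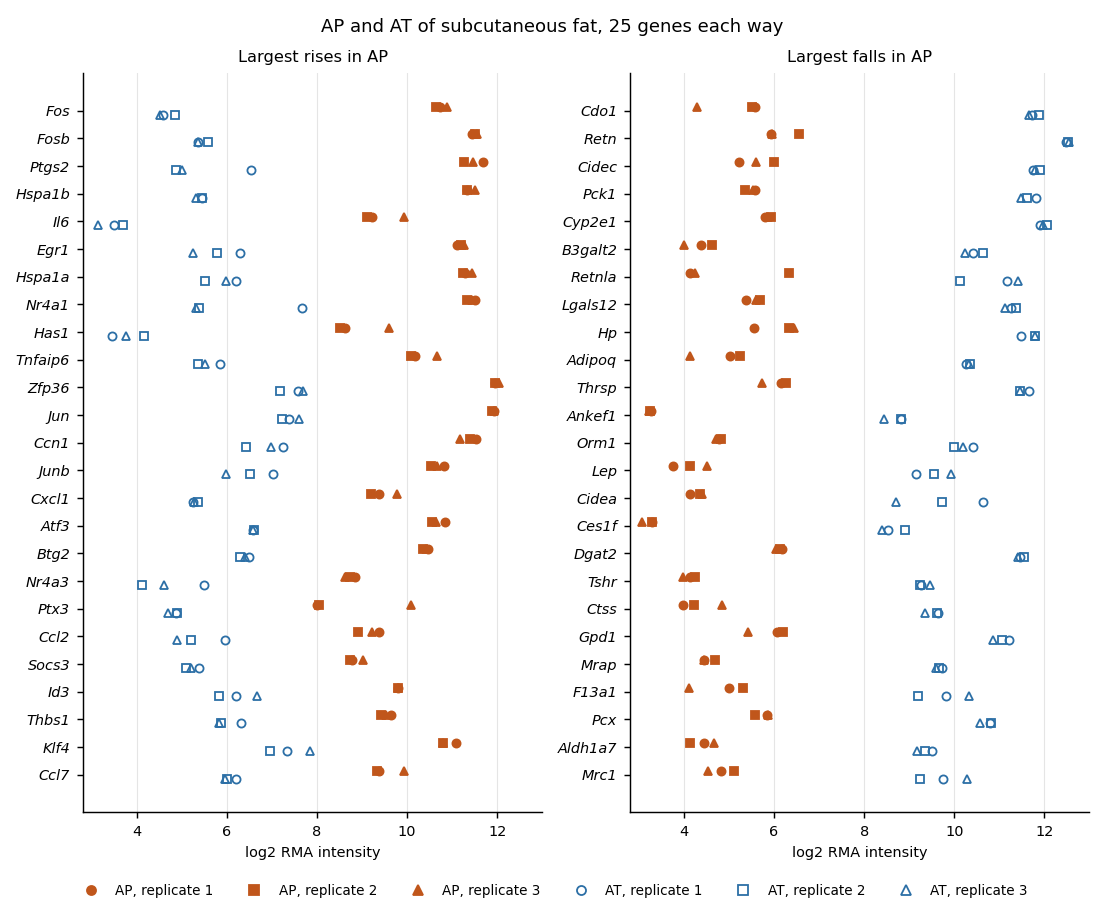
Log2 RMA intensity (horizontal axis) of the 25 named genes with the largest rises (left) and falls (right) in AP, 1 mark per array, filled for AP and open for AT, with a shape for each replicate. The genes were chosen among those with no overlap between AP and AT arrays. AP replicate 3 lies to the right of the other AP arrays for Il6, Has1 and Ptx3.

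Heat shock proteins are chaperones whose genes are switched on by heat shock factor through repeats of a short element near the gene start. The inducible chaperone gene Hspa1b was at 11.33, 11.33 and 11.50 in AP and 5.44, 5.45 and 5.32 in AT (log2 difference 5.98, SE 0.0946) and its neighbour Hspa1a at 11.28, 11.23 and 11.44 in AP and 6.21, 5.51 and 5.98 in AT (log2 difference 5.42, SE 0.154). Both genes were high in every AP array. They are near-identical copies, so probes may read transcripts of either and their separate values are uncertain. Their promoter windows (250 bases before to 50 after the gene start, RefSeq on GRCm38.p6, both on the minus strand of chromosome 17, chr17:34972107-34972406 and chr17:34959189-34959488) are shown with the heat shock element core in capitals; they were identical at 296 of 300 positions, 98.7%.
Hspa1a: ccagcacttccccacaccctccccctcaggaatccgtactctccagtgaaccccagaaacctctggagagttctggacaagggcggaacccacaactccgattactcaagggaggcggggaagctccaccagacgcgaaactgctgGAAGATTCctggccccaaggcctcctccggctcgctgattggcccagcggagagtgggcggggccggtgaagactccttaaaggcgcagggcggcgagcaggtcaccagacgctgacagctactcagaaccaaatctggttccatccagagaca
Hspa1b: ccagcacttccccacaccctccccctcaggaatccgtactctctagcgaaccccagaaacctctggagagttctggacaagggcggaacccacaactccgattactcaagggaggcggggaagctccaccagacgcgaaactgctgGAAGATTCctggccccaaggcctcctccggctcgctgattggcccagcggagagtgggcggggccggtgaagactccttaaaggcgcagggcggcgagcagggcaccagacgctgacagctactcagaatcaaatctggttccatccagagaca
The core searched was GAANNTTC, which reads the same on both strands; its overlap with other motifs was not examined, and in both windows it starts 104 bases before the gene start. It was found in windows of 9 of the 12 members of the list with a promoter in the RefSeq table (75.0%) and of 8.15% of all 16918 genes that have such a window.

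The rest of the chaperone list did not move as one. Of 15 measured members 8 rose and 4 fell, with a median of 0.34. The small chaperone Hspb1 rose by 2.31 (SE 0.137) and the co-chaperone Dnajb1 by 1.95. The mitochondrial chaperonin Hspd1 was at 7.16, 7.24 and 7.19 in AP and 9.0, 9.01 and 8.63 in AT and so fell by 1.68 (SE 0.133), and Chordc1, a co-chaperone of Hsp90 proteins, fell by 1.38 (SE 0.147). The heat shock element core stood in windows of 5 of the 6 risen members with a window and of 3 of the 4 fallen ones, so its presence did not sort them by direction. Among 14 genes of the unfolded protein response, by which cells meet misfolded protein in the endoplasmic reticulum, 5 rose and 2 fell. Rises included those of the transcription factor Atf4 (0.98), Ddit3 (0.92) and the luminal chaperone Hspa5 (0.72), and asparagine synthetase (Asns) fell by 0.91. The metallothioneins Mt2 and Mt1, small proteins that bind zinc and copper, rose as well. Mt2 was at 12.06, 12.01 and 12.45 in AP and 9.44, 9.28 and 9.58 in AT (log2 difference 2.74, SE 0.141) and Mt1 at 10.73, 10.80 and 11.09 in AP and 9.25, 9.13 and 9.28 in AT (log2 difference 1.65, SE 0.114), with no overlap between the groups.

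Targets of the mechanosensitive factors YAP and SRF rose in 15 of 17 cases, with a median of 0.87. Ccn1, a secreted matricellular protein of this class, was at 11.52, 11.39 and 11.18 in AP and 7.25, 6.42 and 6.98 in AT (log2 difference 4.48, SE 0.183), the receptor kinase Axl rose by 2.02 and the actin cross-linker Flna by 1.73. SRF binds the CArG box, CC and GG with a run of A and T between them. Zfp36 is shown as a member of the stress lists whose RefSeq window (GRCm38.p6, chr7:28379179-28379478, minus strand) holds one, in capitals, starting 58 bases before the gene start.
Zfp36: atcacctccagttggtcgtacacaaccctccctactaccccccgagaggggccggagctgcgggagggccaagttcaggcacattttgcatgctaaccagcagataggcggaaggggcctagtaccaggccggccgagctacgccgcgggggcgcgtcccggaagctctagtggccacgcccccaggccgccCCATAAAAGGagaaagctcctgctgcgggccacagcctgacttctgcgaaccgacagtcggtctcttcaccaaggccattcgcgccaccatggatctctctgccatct
Such a box was found, on either strand, in windows of 2 of 16 genes of the feedback list (12.5%), of 1 of 17 immediate early genes and of 1.67% of all genes with a window. A match of letters is a description and not a proven site.

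Turning to the identity of the preparation, the progenitor receptors were higher in AP than in any AT array. Pdgfra was at 11.05, 11.02 and 11.15 in AP and 8.82, 8.31 and 9.64 in AT (log2 difference 2.15, SE 0.227, adjusted p = 2.06e-06). Pdgfrb was at 10.30, 10.43 and 10.58 in AP and 7.22, 7.19 and 8.04 in AT (log2 difference 2.95, SE 0.211). The sialomucin Cd34 was at 11.50, 11.28 and 11.18 in AP and 9.63, 9.43 and 10.35 in AT (log2 difference 1.52, SE 0.179). In all of these AP was tight, and AT replicate 3 was the AT array closest to it. Of 16 measured progenitor surface antigens 13 rose and 0 fell (median 1.10), including the collagen-binding integrin Itga11 (2.53) and the scavenger receptor Lrp1 (1.57). Dlk1, a preadipocyte factor that is secreted or membrane-bound, was at 5.46, 5.77 and 5.57 in AP and 4.65, 4.63 and 4.85 in AT (log2 difference 0.89, SE 0.16).

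Progenitor states described in inguinal fat were counted separately. Genes of the Dpp4-marked interstitial cells, which lie in the connective tissue sheath and give rise to other progenitors, rose in 13 of 14 cases with a median of 1.53. Their protease inhibitor Pi16 was at 11.56, 11.47 and 11.40 in AP and 8.56, 8.04 and 9.76 in AT (log2 difference 2.69, SE 0.302), and the endosialin Cd248, the scavenging chemokine receptor Ackr3 and the ligand Bmp7 rose by 2.33, 2.14 and 2.03. Genes of the F3-marked regulatory cells rose in 10 of 11 cases, with a median of 1.49. The cytoglobin Cygb was at 11.63, 11.69 and 11.93 in AP and 8.77, 8.90 and 9.26 in AT (log2 difference 2.77, SE 0.138) and the growth factor Gdf10 at 10.26, 10.48 and 10.11 in AP and 7.70, 7.70 and 8.02 in AT (log2 difference 2.48, SE 0.125). In both lists AT replicate 3 again had the highest mean level among AT arrays, 7.69 against 7.09 and 6.93 in the list of Dpp4-marked cells.
The list for Icam1-marked committed preadipocytes split, with 5 of 13 higher and 8 lower and a median of -1.13. Icam1 itself was at 7.21, 7.54 and 8.02 in AP and 6.60, 6.14 and 6.21 in AT (log2 difference 1.27, SE 0.2), and the matrix genes Col4a1 (0.96) and Col15a1 (0.92) also rose. The 4 largest falls were those of genes that mature adipocytes express too: the fatty acid carrier Cd36 fell by 3.30, the binding protein Fabp4 by 2.15, Pparg by 1.86 and lipoprotein lipase (Lpl) by 1.64. Fabp4 was at 10.57, 10.67 and 10.55 in AP and 12.72, 12.70 and 12.82 in AT, with no overlap.

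Most matrix genes rose. Of 22 fibrillar collagens and elastic fibre proteins 21 rose (median 1.59), of 16 basement membrane proteins 15 (median 1.01), and of 11 small leucine-rich proteoglycans, which organise collagen fibrils, 9 (median 1.12), and 0 fell in any of these lists. Fibulin 1 (Fbln1), a protein of elastic fibres, was at 9.52, 9.65 and 9.80 in AP and 6.65, 6.52 and 7.38 in AT (log2 difference 2.81, SE 0.178). The laminin chain Lamb2 was at 10.23, 10.15 and 10.19 in AP and 7.59, 7.68 and 8.49 in AT (log2 difference 2.27, SE 0.178). The proteoglycan biglycan (Bgn) was at 12.64, 12.88 and 12.93 in AP and 11.07, 11.26 and 11.19 in AT (log2 difference 1.64, SE 0.107). No AP array overlapped an AT array for any of the 3, and AP lay wholly above AT in 23.5% of all genes. The matricellular thrombospondins Thbs1 and Thbs2 rose by 3.53 and 2.51, the laminin Lama2 by 2.03 and perlecan (Hspg2) by 1.46. The mean level of the collagen list was 9.92, 9.95 and 9.93 in AP and 8.05, 8.06 and 8.62 in AT, so replicate 3 again stood highest in AT.
Among matrix proteases, inhibitors and cross-linkers 16 of 21 rose and 3 fell. The aggrecanases Adamts4 and Adamts1 rose by 3.38 (SE 0.19) and 3.33 (SE 0.135), and the membrane collagenase Mmp14 by 2.12. The inhibitor Timp1 was at 7.07, 7.15 and 8.57 in AP and 5.31, 5.17 and 5.27 in AT (log2 difference 2.35, SE 0.287), with AP replicate 3 above the other AP arrays. The gelatinase Mmp9, made by leukocytes among others, fell: it was at 4.86, 5.29 and 5.66 in AP and 7.56, 6.87 and 7.90 in AT (log2 difference -2.17, SE 0.238). Of 16 integrin subunits 9 rose, led by the leukocyte chain Itgb7 (1.81) and the fibronectin receptor chain Itga5 (1.73). The 4 that fell included the laminin receptor chain Itga6 (-1.93) and another leukocyte chain, Itga4 (-1.52).

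Many signalling genes rose as well, secreted antagonists and co-receptors among them. In the TGF-beta and BMP pathway 15 of 27 rose and 1 fell (2 fell without AT replicate 3). The ligand Tgfb3 was at 8.75, 8.58 and 8.62 in AP and 6.15, 6.29 and 6.84 in AT (log2 difference 2.22, SE 0.15), its latency protein Ltbp1 rose by 2.05, the co-receptor Tgfbr3 by 1.76, and follistatin (Fst), which traps activin, was at 9.53, 9.67 and 9.20 in AP and 7.03, 6.96 and 7.44 in AT (log2 difference 2.32, SE 0.181). In the Wnt pathway 24 of 32 rose and 1 fell (0 without AP replicate 1 or 3 or AT replicate 3), and the largest rises were those of secreted inhibitors: Sfrp1 (2.14), Dkk2 (1.91), Sfrp2 (1.79) and Sfrp4 (1.74). For these 4 genes AT replicate 3 was the highest AT array; Sfrp2, for example, was at 10.74, 10.51 and 10.11 in AP and 8.21, 8.48 and 9.29 in AT. In the Notch and Hedgehog pathways 14 of 22 rose and 3 fell (median 1.11); without AP replicate 1 only 1 fell. The mural cell receptor Notch3 was at 9.42, 9.40 and 9.63 in AP and 6.42, 6.71 and 6.60 in AT (log2 difference 2.91, SE 0.14). The Hedgehog co-receptors Boc and Gas1 rose by 2.86 and 2.10, and the Hedgehog-regulated factor Gli3 by 2.06. The endothelial Notch ligand Dll4 fell, from 5.26, 5.52 and 5.38 in AT to 4.18, 4.52 and 4.40 in AP (log2 difference -1.02, SE 0.133).
Growth factors were divided. Of 25 ligands 10 rose and 7 fell, and of 26 receptors 10 rose and 10 fell. Angpt2 (1.62), which loosens vessels, the epithelial growth factor Fgf7 (1.60) and the lymphatic growth factor Vegfd (1.37) rose. The brown adipocyte product Nrg4 fell by 2.09 (SE 0.255) and Vegfb, which acts on endothelial lipid uptake, by 1.82 (SE 0.106). Among receptors, Egfr was at 11.32, 11.42 and 11.15 in AP and 8.91, 8.69 and 9.79 in AT (log2 difference 2.17, SE 0.203) and the collagen receptor Ddr2 rose by 1.43. The vascular endothelial growth factor receptors Kdr and Flt1 fell by 3.40 and 1.96, and the growth hormone receptor (Ghr) by 2.90.

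Transcription factors of the adipogenic cascade went both ways. Of 23 adipogenic factors 8 rose and 10 fell; their median of -0.02 turned positive under quantile normalization, both kinds of housekeeping scaling and without AP replicate 1. Among the largest rises, Klf4 was at 11.08, 10.80 and 10.80 in AP and 7.34, 6.95 and 7.84 in AT (log2 difference 3.52, SE 0.171) and Cebpd at 8.04, 8.04 and 8.49 in AP and 5.59, 5.44 and 6.30 in AT (log2 difference 2.41, SE 0.204), with Ebf2 at 1.24 and Klf5 at 1.03. Among the largest falls, Cebpa was at 7.10, 6.88 and 6.98 in AP and 10.09, 10.49 and 10.18 in AT (log2 difference -3.27, SE 0.128) and Pparg at 7.53, 7.65 and 7.42 in AP and 9.39, 9.72 and 9.06 in AT (log2 difference -1.86, SE 0.165). Groups did not overlap for any of these 6. Over all genes, AP lay wholly above AT in 23.5% and wholly below it in 21.1%. The glucose-sensing lipogenic factor Mlxipl fell by 2.90.
Factors that restrain adipogenesis rose in 15 of 21 cases and 0 fell (median 1.08; 1 fell without AT replicate 2 or 3). Id3, which blocks basic helix-loop-helix factors, was at 9.80, 9.79 and 9.80 in AP and 6.19, 5.82 and 6.67 in AT (log2 difference 3.57, SE 0.172). Osr2 and Osr1, zinc finger factors of connective tissue, rose by 2.89 (SE 0.244) and 2.51 (SE 0.147), and Klf2 by 2.47.
Factors that mark subcutaneous position rose in 9 of 18 cases. Tbx5 was at 8.11, 8.04 and 7.82 in AP and 6.01, 6.13 and 5.95 in AT (log2 difference 1.96, SE 0.137), Emx2 at 7.78, 7.28 and 7.52 in AP and 5.44, 5.26 and 6.0 in AT (log2 difference 1.96, SE 0.173) and Tbx15 at 8.05, 7.79 and 8.01 in AP and 6.29, 6.55 and 6.86 in AT (log2 difference 1.38, SE 0.162). AP arrays lay above AT arrays for all 3. The homeobox gene Hoxc8 was the 1 member that fell (2 fell without AT replicate 3): it was at 8.37, 8.28 and 7.98 in AP and 9.47, 9.61 and 9.49 in AT (log2 difference -1.31, SE 0.112).
Of 17 circadian clock genes 10 rose, led by the repressor Per1 (1.80), the helix-loop-helix factor Bhlhe40 (1.80), the repressor Cry2 (1.51) and the output factor Dbp (1.24). Clock itself fell by 1.10 (SE 0.136). Per1 and Bhlhe40 also respond quickly to stimuli, and the time of day of sampling was not stated.

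**Figure D2:**
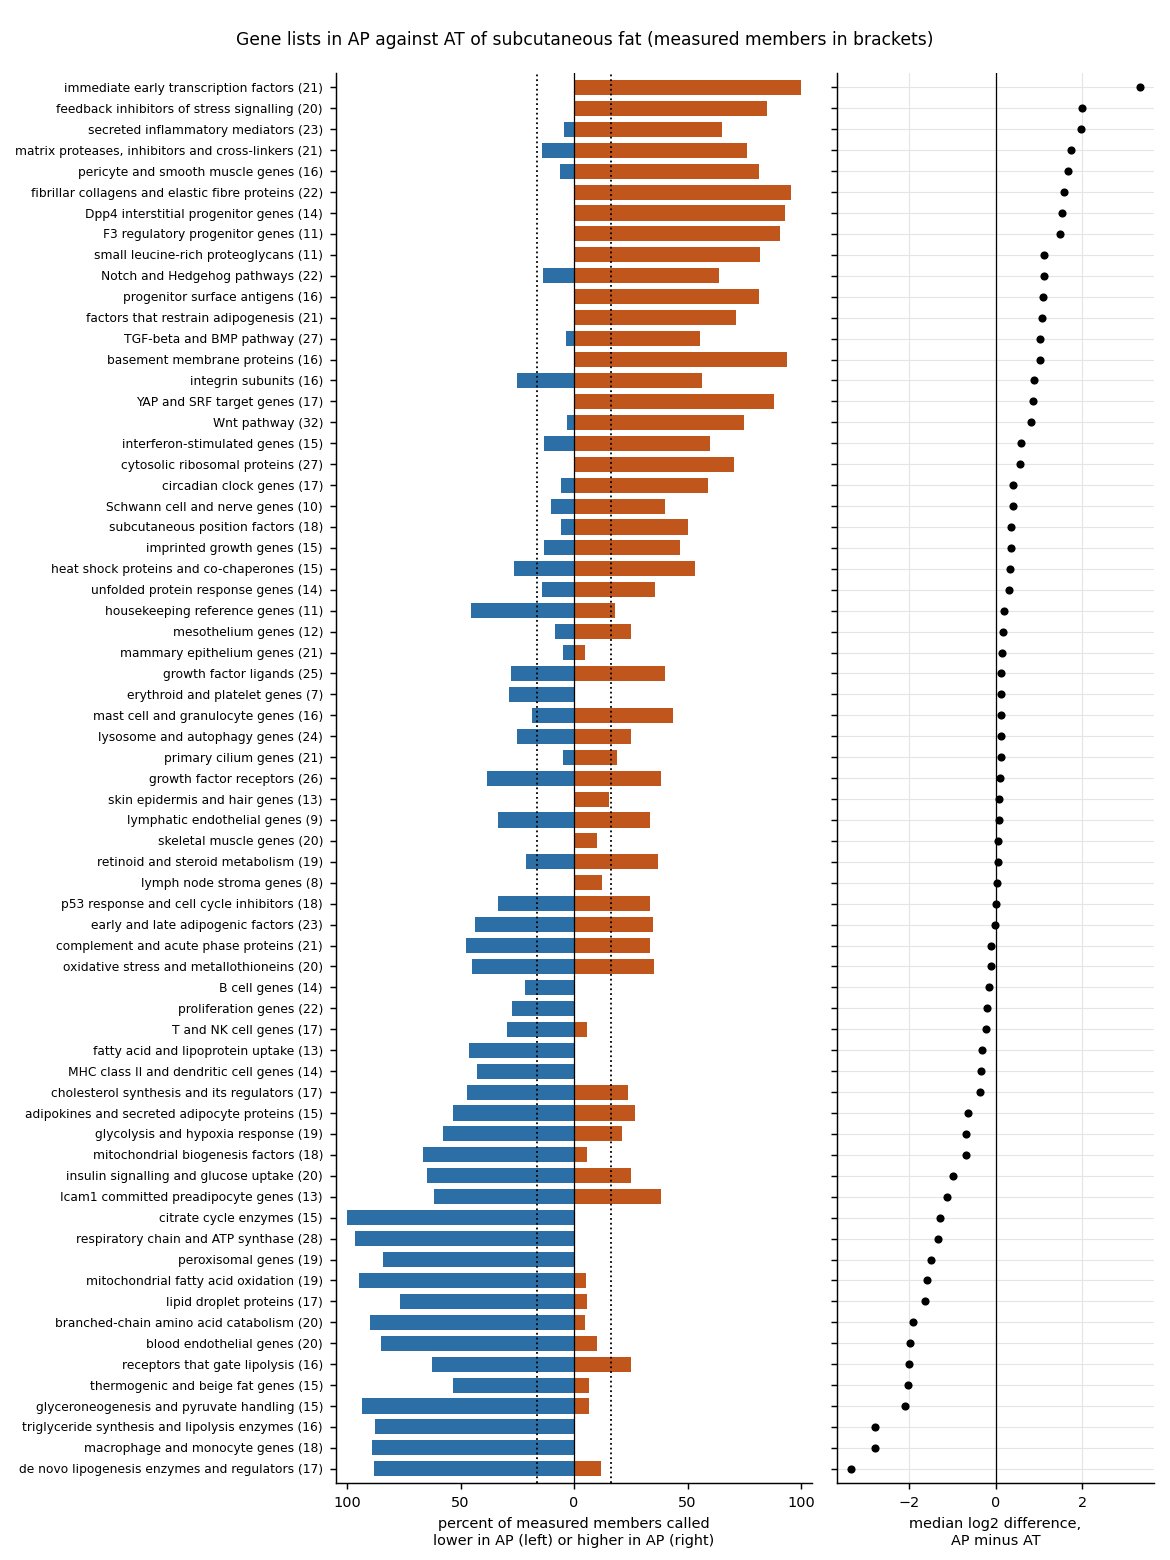
Gene lists ordered by median log2 difference, AP minus AT (right panel, 1 point per list). Bars in the left panel give the percentage of measured members that rose (right of 0) or fell (left of 0) in AP, and dotted lines give the percentages over all genes, 16.1% and 16.3%; immediate early factors lie at one end and enzymes of fatty acid synthesis at the other.

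The largest falls were those of adipocyte genes. Cdo1, a cysteine dioxygenase that forms taurine precursors, was at 5.58, 5.52 and 4.28 in AP and 11.73, 11.88 and 11.66 in AT, a 99-fold difference (log2 -6.63, SE 0.245, adjusted p = 2.19e-11). The hormone resistin (Retn) was at 5.94, 6.55 and 5.96 in AP and 12.49, 12.53 and 12.54 in AT (log2 difference -6.37, SE 0.169). Adiponectin (Adipoq), a hormone that raises insulin sensitivity, was at 5.01, 5.25 and 4.14 in AP and 10.27, 10.36 and 10.32 in AT (log2 difference -5.52, SE 0.247). AT arrays hardly differed from each other for these genes, while AP arrays spanned more than 1 log2 unit for Cdo1 and Adipoq, with AP replicate 3 lowest. Leptin (Lep), the satiety hormone, was at 3.75, 4.14 and 4.51 in AP and 9.14, 9.55 and 9.93 in AT (log2 difference -5.41, SE 0.2).
Secreted adipocyte proteins as a list were mixed, with 8 of 15 lower and 4 higher and a median of -0.63 that became 0.02 when arrays were scaled to the median of the housekeeping genes. Rises included angiotensinogen (Agt, 1.97), the cytokine Metrnl (1.59) and the matrix protein Sparcl1 (1.16), and the imprinted proteolipid Nnat fell by 3.02.
Lipid droplet proteins fell in 13 of 17 cases and rose in 1. The droplet-fusing Cidec was at 5.22, 5.99 and 5.60 in AP and 11.74, 11.91 and 11.80 in AT (log2 difference -6.21, SE 0.161). Plin1, which guards the droplet from lipases, was at 6.05, 5.92 and 5.83 in AP and 10.29, 10.30 and 10.32 in AT (log2 difference -4.37, SE 0.111). Plin4 fell by 3.30, whereas Plin3, a coat protein found in many cell types, rose by 0.94 (SE 0.113).

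Enzymes that make, store and release fat fell with few exceptions. Of 16 enzymes of triglyceride synthesis and lipolysis 14 fell and 0 rose (median -2.77). Dgat2, which adds the last fatty acid, was at 6.17, 6.12 and 6.04 in AP and 11.45, 11.55 and 11.42 in AT (log2 difference -5.36, SE 0.117), Gpd1, which makes the glycerol backbone, fell by 5.15, and Agpat2 by 3.86. Of 17 genes of de novo lipogenesis 15 fell, with a median of -3.34: acetyl-CoA carboxylase (Acaca) was at 7.01, 6.98 and 6.87 in AP and 11.36, 11.12 and 10.97 in AT (log2 difference -4.20, SE 0.176), malic enzyme (Me1) fell by 4.14 and Thrsp, a regulator of lipogenesis, by 5.47. The 2 that rose were the desaturases of polyunsaturated fatty acids. Fads2 was at 8.41, 8.35 and 8.41 in AP and 6.97, 6.24 and 7.27 in AT (log2 difference 1.56, SE 0.194) and Fads1 at 9.42, 9.18 and 9.06 in AP and 8.07, 8.01 and 8.64 in AT (log2 difference 0.98, SE 0.149). They were higher in every AP array, in the direction opposite to the rest of the list.
Glyceroneogenesis and pyruvate handling fell in 14 of 15 cases, as in Pck1 (-6.16), pyruvate carboxylase (Pcx, -4.97) and the mitochondrial pyruvate carrier Mpc1 (-3.05); aspartate aminotransferase (Got1) rose by 1.21. In insulin signalling and glucose uptake 13 of 20 fell and 5 rose. The insulin-responsive glucose transporter Slc2a4 was at 6.47, 6.64 and 6.58 in AP and 8.89, 8.83 and 8.59 in AT (log2 difference -2.21, SE 0.133) and the phosphodiesterase Pde3b, through which insulin restrains lipolysis, fell by 4.79. The adaptor Irs2 rose: it was at 9.53, 9.56 and 9.69 in AP and 7.93, 7.30 and 7.74 in AT (log2 difference 1.94, SE 0.155).
Receptors that gate lipolysis fell in 10 of 16 cases and rose in 4. The thyrotropin receptor Tshr was at 4.14, 4.25 and 3.97 in AP and 9.26, 9.24 and 9.46 in AT (log2 difference -5.20, SE 0.123), the niacin receptor Hcar2 fell by 3.11 and the natriuretic peptide clearance receptor Npr3 by 3.57. The signalling receptor of the same peptides, Npr1, rose by 1.43 (SE 0.131), as did the neuropeptide Y receptor Npy1r (1.77) and the adrenergic receptor Adra1b (1.22). Fatty acid and lipoprotein uptake had 6 of 13 genes lower, such as the transporter Slc27a1 (-3.29) and the capillary anchor of lipoprotein lipase Gpihbp1 (-2.40); its median of -0.30 turned to 0.35 when arrays were scaled to the median of the housekeeping genes.

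Most mitochondrial genes fell. Of 28 subunits of the respiratory chain and ATP synthase 27 fell (median -1.34), of 15 citrate cycle enzymes 15 (median -1.29), of 19 enzymes of fatty acid oxidation 18 (median -1.59) and of 20 genes of branched-chain amino acid catabolism 18 (median -1.90). The medians kept their sign under both kinds of housekeeping scaling. Ndufs1 of complex I was at 6.58, 6.42 and 6.34 in AP and 8.92, 8.51 and 8.20 in AT (log2 difference -2.10, SE 0.156). Idh3a, which decarboxylates isocitrate, was at 7.25, 7.03 and 6.95 in AP and 10.37, 9.97 and 9.63 in AT (log2 difference -2.91, SE 0.178). Aldh6a1, the last step of valine breakdown to propionyl-CoA, was at 7.33, 7.27 and 7.56 in AP and 11.02, 10.94 and 10.81 in AT (log2 difference -3.54, SE 0.133). AT replicate 1 was the highest and AT replicate 3 the lowest AT array in each of them. None overlapped with AP, which lay wholly below AT in 21.1% of all genes.
Carnitine palmitoyltransferase Cpt1a, which admits fatty acids to the mitochondrion, rose by 0.67 (SE 0.145), and the cytosolic aminotransferase Bcat1 by 0.67 (SE 0.133), against the direction of their pathways. Peroxisomal genes fell in 16 of 19 cases, with the very long chain transporter Abcd2 at -3.96 and Scp2 at -3.23. Of 18 factors of mitochondrial biogenesis 12 fell, such as Tfb2m (-1.65) and the fusion protein Opa1 (-1.27).

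NRF1 is a transcription factor of respiratory genes that binds a palindromic GC-rich site. The window of Sdha is shown because it holds this site, GCGCA followed by any base and GCGC on either strand, at 3 places, starting 98, 55 and 10 bases before the gene start (RefSeq, GRCm38.p6, chr13:74350191-74350490, minus strand; sites in capitals).
Sdha: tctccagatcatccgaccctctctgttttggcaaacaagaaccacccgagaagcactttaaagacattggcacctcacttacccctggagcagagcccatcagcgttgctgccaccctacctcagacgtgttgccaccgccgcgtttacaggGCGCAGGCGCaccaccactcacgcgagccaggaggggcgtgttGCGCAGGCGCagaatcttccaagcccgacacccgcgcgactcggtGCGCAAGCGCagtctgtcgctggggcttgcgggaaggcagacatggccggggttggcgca
Sdha was at 8.99, 9.07 and 8.82 in AP and 10.95, 10.80 and 10.41 in AT (log2 difference -1.76, SE 0.142). The site was found in windows of 18 of 103 genes of the mitochondrial lists (17.5%), of 7.87% of all genes that fell at least 2-fold, of 2.52% of those that rose at least 2-fold and of 7.26% of all genes with a window.

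Other branches of metabolism were divided. In glycolysis and the hypoxia response 11 of 19 fell and 4 rose, while the median of -0.68 became -0.03 after scaling to the median of the housekeeping genes. The mitophagy receptor Bnip3 fell by 3.33, the phosphofructokinase regulator Pfkfb3 by 2.89 and hexokinase 2 (Hk2) by 1.64. The hexokinase of most tissues, Hk1, rose by 0.86, and the vasodilator peptide adrenomedullin (Adm) was at 8.65, 8.84 and 8.41 in AP and 5.91, 5.78 and 6.68 in AT (log2 difference 2.51, SE 0.195). Of 17 genes of cholesterol synthesis 8 fell, with a median of -0.36 that became 0.29 after scaling to the median of the housekeeping genes, such as Pmvk (-1.95) and Hmgcs1 (-1.72), and the master regulator Srebf2 rose by 1.42 (SE 0.123); the list's count of rises was 4, and 2 without AP replicate 1 or 2 or AT replicate 2 or 3.
Retinoid and steroid metabolism had 7 of 19 genes higher and 4 lower. The progesterone-inactivating enzyme Akr1c18 was at 10.12, 9.84 and 9.40 in AP and 7.46, 7.02 and 8.26 in AT (log2 difference 2.21, SE 0.246), the retinaldehyde dehydrogenase Aldh1a3 rose by 1.83, and the cytochrome Cyp2e1, which oxidises ethanol and ketones, fell by 6.12. The glutathione transferases Gsta3 and Gsta4 fell by 2.55 and 2.42 and catalase (Cat) by 1.88, while the extracellular antioxidant enzymes Gpx3 and Sod3 rose by 1.08 and 0.67.
Of 21 complement and acute phase genes 7 rose and 10 fell, with a median of -0.10 that was positive under both kinds of housekeeping scaling. C7, of the membrane attack complex, was at 12.25, 12.19 and 12.23 in AP and 9.68, 9.24 and 11.03 in AT (log2 difference 2.24, SE 0.298), whereas C6 of the same complex fell by 1.25 (SE 0.239); the inhibitor Serping1 rose by 1.67 and the protease C1s1 by 1.83. The macrophage-made recognition subunit C1qb fell by 4.35, properdin (Cfp) by 3.03, and the acute phase proteins haptoglobin (Hp) and Orm1 by 5.59 and 5.44. Interferon-stimulated genes rose in 9 of 15 cases and 2 fell, with the deubiquitinase-like Usp18 at 1.92, Irf1 at 1.76 and the ubiquitin-like Isg15 at 0.94.

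Of the markers of cells that the beads were meant to remove, Pecam1, Cdh5, Ptprc, Adgre1 and Mrc1 fell and had AP means above the near-background level, and the macrophage gene Ms4a7 fell by 3.53 to an AP mean below it. CD31 itself (Pecam1) was at 4.95, 5.05 and 4.81 in AP and 7.85, 7.99 and 7.89 in AT (log2 difference -2.97, SE 0.123). The endothelial cadherin Cdh5 was at 6.63, 7.08 and 6.20 in AP and 9.87, 10.16 and 10.17 in AT (log2 difference -3.43, SE 0.202), with AP replicate 2 the highest of the AP arrays. Of 20 blood endothelial genes 17 fell (median -1.97), among them the phosphatase Ptprb (-3.36) and Kdr (-3.40); the angiopoietin receptor Tek and the TGF-beta co-receptor Eng rose by 1.14 and 0.78. Lymphatic endothelial genes went both ways, with 3 of 9 higher (1 without AT replicate 1 or 2), 3 lower and a median of 0.08; the hyaluronan receptor Lyve1 fell by 2.74 and podoplanin (Pdpn), a membrane mucin, rose by 2.08.
The pan-leukocyte phosphatase Ptprc was at 5.57, 5.42 and 5.71 in AP and 8.51, 8.07 and 7.79 in AT (log2 difference -2.56, SE 0.185). The macrophage receptor Adgre1 was at 4.68, 4.16 and 4.49 in AP and 7.95, 7.73 and 8.19 in AT (log2 difference -3.51, SE 0.15). The mannose receptor Mrc1 was at 4.81, 5.12 and 4.53 in AP and 9.74, 9.23 and 10.29 in AT (log2 difference -4.93, SE 0.21). Of 18 macrophage and monocyte genes 16 fell, at a median of -2.78, including lysozyme (Lyz2, -4.87) and the resistin-like Retnla, which was at 4.13, 6.34 and 4.24 in AP and 11.17, 10.13 and 11.42 in AT. AP replicate 2 held more of Retnla and of the macrophage list than the other AP arrays, with a mean list level of 5.16 against 4.88 and 4.87, and AT replicate 2 held the least among AT arrays (7.41 against 7.84 and 8.05). Genes of antigen presentation on MHC class II fell in 6 of 14 cases, such as H2-Ab1 (-3.29) and H2-Aa (-3.03); their list median of -0.35 turned positive under scaling to the median of the housekeeping genes.
Lymphocyte genes varied between AT arrays. Cd3g of the T cell receptor complex was at 4.87, 4.81 and 4.30 in AP and 7.51, 6.98 and 5.54 in AT (log2 difference -2.02, SE 0.441, adjusted p = 0.00196). Its partner Cd3e was at 5.39, 5.19 and 5.33 in AP and 6.94, 6.61 and 5.19 in AT, so that AT replicate 3 lay at the lowest AP value; its adjusted p of 0.0349 ranged from 2.74e-05 to 0.191 when single arrays of SAT were left out, and was over 0.05 without any of the AP arrays or without AT replicate 1 or 2. The immunoglobulin gene Ighm was at 7.62, 7.79 and 8.77 in AP and 9.23, 9.90 and 10.38 in AT (log2 difference -1.78, SE 0.317), and Bank1 fell by 1.70. Of 17 T and NK cell genes 5 fell and 1 rose, and of 14 B cell genes 3 fell and 0 rose, with medians of -0.22 and -0.14 that were positive under both kinds of housekeeping scaling. Without single arrays of SAT other than AT replicate 3, the number of T and NK cell genes that fell was 1 to 3, and without AP replicate 2 none rose. Over all genes tested, 16.3% fell and 16.1% rose, and these small counts were not tested against those shares.

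Genes of mural cells, mast cells and nerve were counted in the same way. Of 16 pericyte and smooth muscle genes 13 rose and 1 fell (median 1.68). Smooth muscle actin (Acta2) was at 11.43, 11.39 and 11.35 in AP and 8.54, 8.46 and 8.91 in AT (log2 difference 2.75, SE 0.136), smooth muscle myosin (Myh11) at 10.30, 10.24 and 10.02 in AP and 7.51, 7.59 and 7.55 in AT (log2 difference 2.64, SE 0.105) and desmin (Des) rose by 2.62; the surface protein Mcam, which endothelium carries too, fell by 0.88. The pericyte marker Rgs5 was at 10.17, 9.95 and 10.35 in AP and 9.76, 9.97 and 9.37 in AT and did not pass (adjusted p = 0.0708).
Mast cells are a tissue-resident leukocyte with granules of proteases and histamine. Their chymase Mcpt4 was at 8.16, 8.12 and 7.99 in AP and 6.55, 6.19 and 7.37 in AT (log2 difference 1.39, SE 0.218), and their tryptase Tpsb2 was at 8.88, 9.01 and 8.92 in AP and 7.20, 6.59 and 7.34 in AT (log2 difference 1.89, SE 0.194). Carboxypeptidase Cpa3 was at 10.29, 10.54 and 10.26 in AP and 9.45, 8.42 and 9.90 in AT (log2 difference 1.11, SE 0.281), which was 0.69 without AT replicate 2, the lowest array. In the joint list of mast cells and granulocytes 7 of 16 rose and 3 fell, and without AP replicate 1 or 3 or AT replicate 1 only 1 fell. Of 10 Schwann cell and nerve genes 4 rose and 1 fell, among them the myelin protein Pmp22 (1.03) and the neurotrophin receptor Ngfr (0.92).
The chemokine Cxcl13, which attracts B cells, was the most variable gene of this kind: it was at 11.64, 11.68 and 12.19 in AP and 9.15, 7.52 and 10.55 in AT (log2 difference 2.76, SE 0.532, adjusted p = 0.00068). Other defining genes of lymph node stroma did not move with it: Glycam1 was at 4.58, 4.49 and 4.60 in AP and 4.88, 4.43 and 4.25 in AT and the follicular receptor Cr2, near background in both groups, at 3.51, 3.44 and 3.38 in AP and 3.48, 3.41 and 3.52 in AT.
Tissues that lie beside the inguinal fat pad were read from their own markers. The mammary epithelial antigen Epcam was near background at 3.46, 3.25 and 3.27 in AP and 3.09, 3.16 and 3.17 in AT, the keratin Krt8 was at 6.25, 6.34 and 6.39 in AP and 6.03, 6.14 and 5.87 in AT, and the list had 1 of 21 genes higher (2 without AP replicate 1 or AT replicate 2) and 1 lower (0 without AP replicate 3). The muscle actin Acta1 was at 6.03, 6.15 and 6.37 in AP and 6.16, 6.14 and 6.15 in AT, the muscle creatine kinase Ckm at 5.44, 5.62 and 5.55 in AP and 5.37, 6.12 and 5.17 in AT, and 2 of 20 muscle genes rose (1 without AP replicate 1 or 3 or AT replicate 1 or 2). The mesothelial antigen Msln was at 4.78, 4.66 and 4.95 in AP and 4.71, 4.40 and 4.66 in AT. None of these 5 markers passed the test. Of 12 mesothelium genes 3 rose and 1 fell (0 fell without AP replicate 1 or 3 or AT replicate 2 or 3). Over all genes tested, 16.1% rose and 16.3% fell, and these small counts were not tested against those shares. The highest rise among mesothelium genes was that of the secreted Wnt agonist Rspo1 (1.36). Of 13 genes of epidermis and hair 2 rose, close to the share of all genes, and both were of the suprabasal epidermis. Sbsn was at 7.62, 7.87 and 7.63 in AP and 5.69, 5.92 and 6.33 in AT (log2 difference 1.73, SE 0.154) and Krtdap at 6.49, 6.60 and 6.12 in AP and 4.88, 5.06 and 5.18 in AT (log2 difference 1.36, SE 0.164). Their part in other results was not tested.

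**Figure D3:**
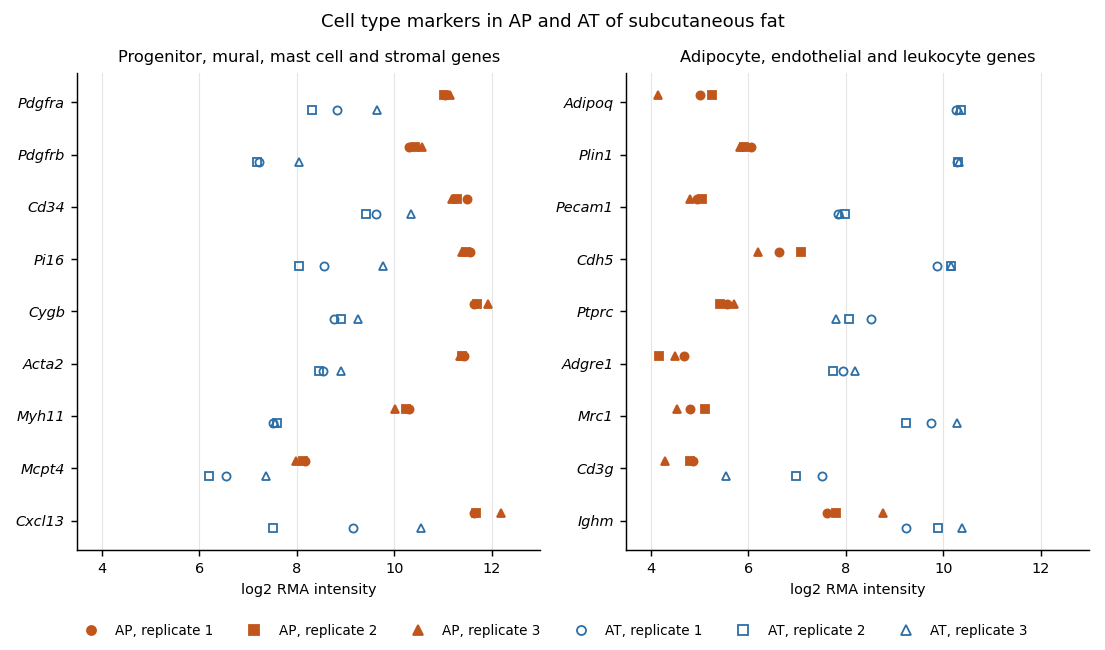
Log2 RMA intensity (horizontal axis) of markers of progenitors, mural cells, mast cells and stroma (left) and of adipocytes, endothelium and leukocytes (right), 1 mark per array, filled for AP and open for AT, with a shape for each replicate. Markers in the left panel lie higher in AP and those in the right panel lower. They are a selection and do not stand for all markers of these cells. Rgs5 and Cd3e, whose AP and AT arrays overlapped, are given in the text and not shown. AT replicate 3 lies nearest to AP for Pdgfra and Pi16, and Cd3g differs most between AT arrays among the markers shown at the right.

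Of 22 proliferation genes 6 fell and 0 rose, and 3 fell without AP replicate 2 or AT replicate 1. Among all genes tested 16.3% fell and 16.1% rose, and the counts were not tested against those shares. The list median of -0.19 was positive under both kinds of housekeeping scaling. The proliferation antigen Mki67 was at 5.09, 5.11 and 5.19 in AP and 6.70, 6.24 and 5.90 in AT (log2 difference -1.15, SE 0.197), and the topoisomerase Top2a fell by 0.91 with an AP mean near background. Among 18 genes of the p53 response and cell cycle inhibition 6 rose and 6 fell. The inhibitors Cdkn1a and Cdkn1c rose by 1.27 and 0.86, and the antiproliferative immediate early gene Btg2 by 4.02. Cdkn2c was at 5.15, 5.14 and 5.14 in AP and 7.93, 8.22 and 7.98 in AT (log2 difference -2.90, SE 0.109), the largest fall in that list. Of 27 cytosolic ribosomal protein genes 19 rose and 0 fell, by a median of only 0.57, led by Rps18 (1.32) and Rps27 (1.11). Of 24 lysosome and autophagy genes 6 rose and 6 fell. The collagen-degrading cathepsin K (Ctsk) was at 9.62, 9.77 and 9.83 in AP and 6.89, 7.27 and 7.67 in AT (log2 difference 2.46, SE 0.161), whereas cathepsin S (Ctss), a protease of antigen-presenting cells, was at 3.98, 4.22 and 4.84 in AP and 9.64, 9.61 and 9.34 in AT (log2 difference -5.18, SE 0.225). Of 15 imprinted growth genes 7 rose, such as Ndn (1.70), an inhibitor of adipogenesis, and Grb10 (1.27), and 2 fell, of which Peg3 fell by 1.13.

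Thermogenic genes fell in 8 of 15 cases and rose in 1, and their levels differed greatly between the AT arrays. The uncoupling protein Ucp1 was at 4.53, 4.27 and 4.34 in AP and 10.76, 8.62 and 4.55 in AT: AT replicate 3 lay just above the AP arrays, and AT replicate 1 more than 6 log2 units above them. Its log2 difference of -3.60 (SE 0.984, adjusted p = 0.00969) became -2.21 (adjusted p = 0.0452) without AT replicate 1. The lipid droplet protein Cidea was at 4.13, 4.35 and 4.41 in AP and 10.64, 9.73 and 8.71 in AT (log2 difference -5.40, SE 0.401). The respiratory subunit Cox8b was at 5.30, 5.73 and 5.74 in AP and 10.30, 9.83 and 8.80 in AT (log2 difference -4.05, SE 0.299). The coactivator Ppargc1a was at 4.11, 4.27 and 4.26 in AP and 7.68, 6.64 and 5.79 in AT (log2 difference -2.49, SE 0.328) and the proton channel Otop1 at 3.85, 4.12 and 3.82 in AP and 7.17, 6.43 and 5.88 in AT (log2 difference -2.56, SE 0.229), with an AP mean near background. All of these were highest in AT replicate 1 and lowest in AT replicate 3, and the whole list had mean levels of 7.04, 6.29 and 5.61 in AT and of 4.52, 4.66 and 4.64 in AP. The 1 member that rose, the beige cell surface marker Tmem26, differed by 0.54 (SE 0.125).
Mitochondrial lists showed the same order in AT, 9.35, 9.12 and 8.84 for the respiratory chain and 9.39, 9.11 and 8.90 for fatty acid oxidation. Several T cell and cycle genes had it too, such as Cd3g and Mki67 above. Progenitor and matrix lists had AT replicate 3 highest, as given above. The part of these differences between AT samples in each fall or rise was not tested beyond leaving out single arrays.

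**Figure D4:**
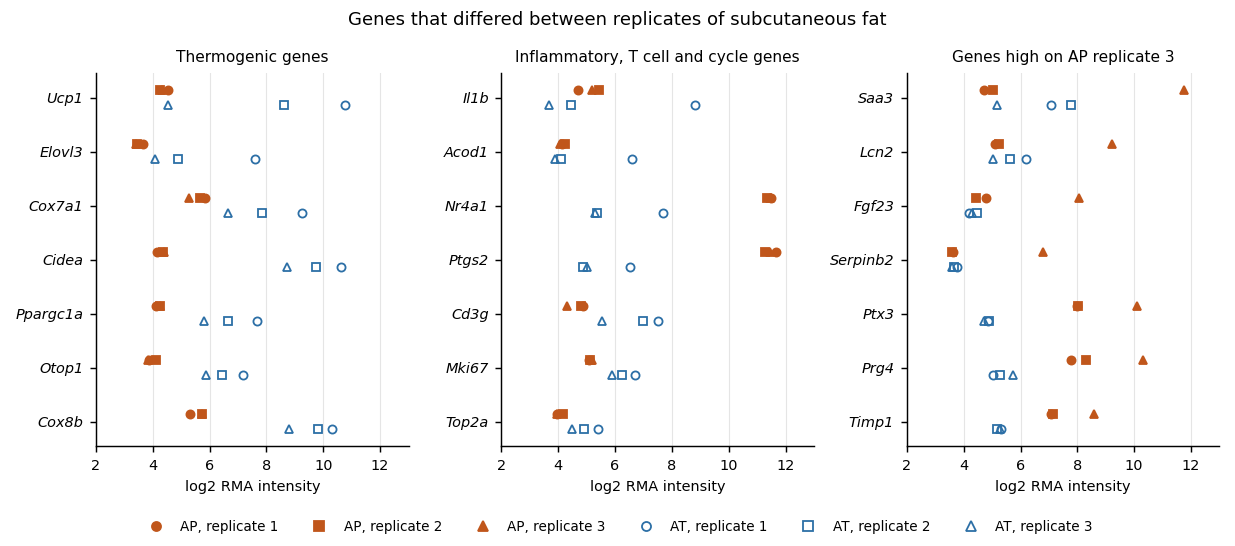
Log2 RMA intensity (horizontal axis) of genes that differed between replicates, chosen after their values were seen: thermogenic genes (left), inflammatory, T cell and cell cycle genes (middle) and genes high on AP replicate 3 (right), 1 mark per array, filled for AP and open for AT. Ucp1 runs from 4.55 to 10.76 over the AT arrays and Saa3 from 4.73 to 11.77 over the AP arrays.

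Small RNA genes on the array were looked at separately; probes for a microRNA gene may read its precursor or its host transcript, so the values are not levels of the mature microRNA. Of 483 microRNA genes tested, 32 rose and 25 fell, 302 had both means near background, and 426 were matched in the RefSeq table. Over all genes tested, 16.1% rose and 16.3% fell, so microRNA genes passed less often than genes at large. The mature sequences of the following genes (RefSeq, GRCm38.p6), chosen after their values were seen, are shown with the seed, bases 2 to 8, in capitals, because they share a seed, lie in a cluster or sit in a gene that changed as well.
mmu-miR-199a-3p: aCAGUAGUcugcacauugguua
mmu-miR-199b-3p: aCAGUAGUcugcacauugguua
mmu-miR-23a-3p: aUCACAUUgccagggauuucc
mmu-miR-27a-3p: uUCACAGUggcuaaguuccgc
mmu-miR-511-3p: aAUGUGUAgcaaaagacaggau
The 3p forms of Mir199a-1 (chr9:21496498-21496519, minus strand) and Mir199b (chr2:32318524-32318545, plus strand) have the same seed and the same letters throughout. Mir199a-1 was at 5.79, 5.35 and 5.92 in AP and 3.69, 3.91 and 3.99 in AT (log2 difference 1.82, SE 0.175, adjusted p = 7.33e-07), and Mir199b, near background in both groups, was at 3.51, 3.35 and 3.34 in AP and 2.28, 2.40 and 2.69 in AT (log2 difference 0.94). Mir23a and Mir27a are neighbours on chromosome 8: Mir23a was at 6.05, 5.62 and 5.61 in AP and 4.33, 3.80 and 4.22 in AT (log2 difference 1.64, SE 0.305) and Mir27a at 6.38, 6.03 and 6.31 in AP and 5.04, 5.21 and 5.04 in AT (log2 difference 1.14, SE 0.148). AP lay above AT in every array for these 4 genes. Mir511 lies within Mrc1 on chromosome 2. It was at 3.58, 3.62 and 4.22 in AP and 5.26, 4.93 and 5.48 in AT (log2 difference -1.42, SE 0.198, adjusted p = 3.6e-05), with an AP mean near background, in the direction of Mrc1, which fell by 4.93. The largest microRNA rise, Mir1938 (2.87), lay within Ifrd1, which also rose (1.25). Other called microRNA genes went against a called host: Mir2137 (0.75) in Zfp185 (-2.03), Mir139 (0.69) in Pde2a (-0.73) and Mir5123 (-0.82) in B4galt1 (0.98). Several lay in hosts that did not pass.

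The same comparison in VAT, made on 6 other arrays, served to ask whether the differences differed between the depots. The difference between AP and AT itself differed between the depots for 476 genes (2.15% of all tested), with 257 of them more positive in SAT. Leaving out single arrays gave 264 without AP replicate 1 of SAT, 309 without its AP replicate 2, 293 without its AT replicate 1, 279 without AP replicate 2 of VAT and 331 to 626 without any other array. Lubricin (Prg4), a surface glycoprotein, was at 7.78, 8.30 and 10.31 in AP and 5.02, 5.27 and 5.74 in AT in SAT, a log2 difference of 3.45, against -0.91 in VAT (difference between depots 4.36, SE 0.642, adjusted p = 0.00213). AP replicate 3 was the highest array. Akr1c18 had 2.21 in SAT and -0.31 in VAT (difference 2.52, SE 0.348), Agt 1.97 and -0.36 (difference 2.33, SE 0.353), and the potassium channel Kcnk5 2.75 and 0.72 (difference 2.04, SE 0.352). The decoy receptor of interleukin 1, Il1r2, was at 10.87, 10.77 and 10.57 in AP and 7.93, 7.58 and 9.30 in AT in SAT, with 2.47 against 0.33 in VAT (difference 2.13, SE 0.428, adjusted p = 0.0169; 2.07 with an adjusted p of 0.0512 without AP replicate 1 of SAT). The position factors Tbx5, Emx2 and Tbx15 had differences of 0.39, 0.45 and 0.08 in VAT against 1.96, 1.96 and 1.38 in SAT (adjusted p of the difference 0.000572, 0.0046 and 0.00779). The stress genes Hspa1b and Mt2 had larger differences in SAT than in VAT, by 1.56 (SE 0.134) and 1.54 (SE 0.2).
In the other direction, Cidea had -5.40 in SAT and -0.82 in VAT (difference -4.58, SE 0.568, adjusted p = 0.000601) and Otop1 -2.56 and 0.25 (difference -2.81, SE 0.323). The median of the thermogenic list was -2.01 in SAT and -0.18 in VAT, and 2 of its 15 members passed the test of the difference. Haptoglobin (Hp) had -5.59 and -2.17 (difference -3.42, SE 0.28), the endothelial receptor Kdr -3.40 and -1.45 (difference -1.95, SE 0.233), and the pyruvate dehydrogenase kinase Pdk4 -2.79 and -0.42 (difference -2.38, SE 0.47). Pdk4 was at 7.02, 7.12 and 7.64 in AP and 11.08, 9.76 and 9.32 in AT in SAT, with AT replicate 1 highest, as for the thermogenic genes. The axon guidance ligand Slit2 and the matrix protein Col6a5 rose in SAT by 0.56 and 1.24, with 2.50 and 3.46 in VAT (adjusted p of the difference 4.73e-05 and 0.00074). Matn2, a matrilin, fell in SAT by 1.09 and had 0.99 in VAT (difference -2.08, SE 0.161).

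**Figure D5:**
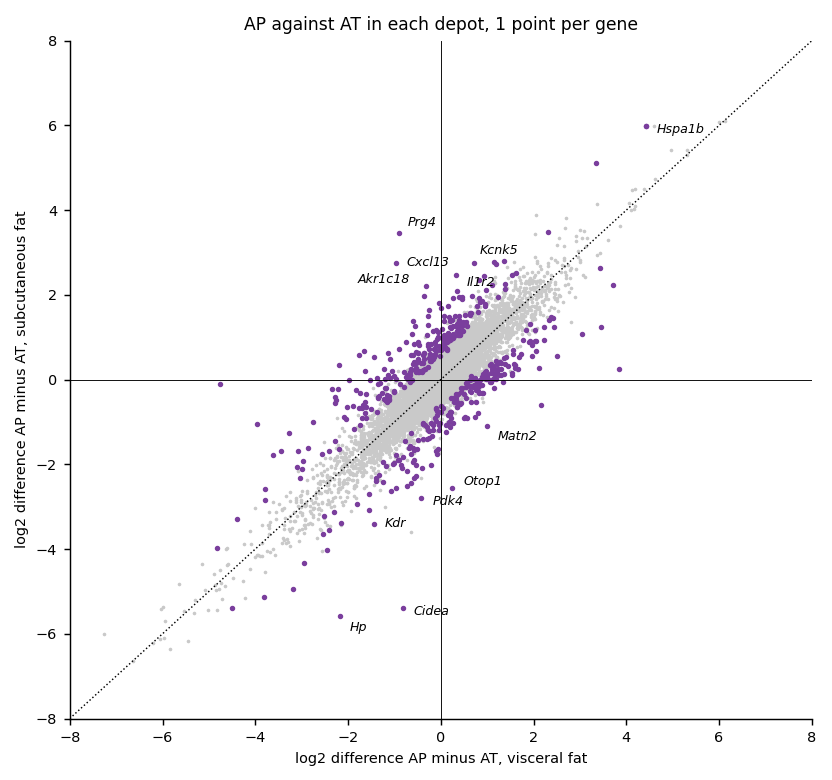
Log2 difference AP minus AT in VAT (horizontal axis) and in SAT (vertical axis), 1 point per gene for 22180 genes; the 476 genes whose difference differed between the depots are dark and the dotted line marks equal differences. Prg4 lies above the line at 3.45 in SAT and -0.91 in VAT, and Cidea below it at -5.40 and -0.82.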

How the data were processed

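RNA of 12 samples, 3 for each of 4 groups (AP and AT, each from SAT and VAT), was measured on Affymetrix mouse gene arrays after amplification with the WT PLUS kit. The authors deposited log2 intensities normalized by RMA in Affymetrix Expression Console 1.3.0.187, per the submitters' processing notes. The annotation library and the summary level were not given in the sources used here. The deposited values ran from 1.69 to 13.48, and arrays carry no read depth. Probe sets given to 1 gene (23521 of 41345) were kept, while 1814 with several genes and 16010 with none were left out, and the brightest by mean over 12 arrays stood for each of 1082 genes with several. limma 3.58.1 in R 4.3.3 fitted 4 group means with a spread shared by all arrays (8 residual and 6.84 prior degrees of freedom); contrasts were AP minus AT in SAT, the same in VAT, and their difference. Calls were made at a Benjamini-Hochberg adjusted p under 0.05 over 22180 genes. On simulated data with this layout of groups, the test recovered 44 of 50 genes changed by 1 log2 unit and 18 of 50 changed by 0.5. Only 50 of 22180 genes were changed at each size there, with independent normal noise. In the real data 32.4% of genes passed, which sets another cutoff after adjustment. The simulated rates are therefore not the recovery in these data.

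Genes named in the text are the 25 largest rises and falls with no overlap between groups, cell type markers, up to 4 called members in each direction for each gene list and the 12 largest differences between depots in each direction, leaving out predicted genes and small RNAs; microRNA genes and genes that varied between replicates were added after their values were seen. The members and the gene lists were chosen with earlier results of these data known. Near background means a mean under the 40th percentile of all intensities, 4.1. Same-numbered replicates of AP and AT in SAT did not deviate together (correlations 0.008, 0.066 and -0.066), so they were not treated as pairs. Same-numbered preparations of SAT and VAT were not compared in this way. With the replicate number as a random block over all 12 arrays, the estimated correlation was -0.0592. Promoter and mature microRNA sequences and gene names were taken from RefSeq tables of GRCm38.p6; no coordinate comes from the deposited files. Alternatives covered the replicate number, scaling, filtering, the choice of probe set, the variance model and single arrays left out; scaling by the housekeeping mean was chosen after the data were seen.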

Additional observations from a re-analysis of the deposited data

Results flagged for a closer look

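The following genes had an AP minus AT difference that itself differed between SAT and VAT in limma's test (adjusted p under 0.05), as 476 genes did in all; each value is the log2 difference in SAT minus that in VAT. Genes of the matrix surface, chemokines and secreted factors with a more positive difference in SAT were Prg4 (4.36), Cxcl13 (3.73), Agt (2.33), Has1 (1.76), Il6 (1.56), Ccl7 (1.19), Tgfb3 (1.12) and Metrnl (0.78). Receptors, channels and an integrin were Il1r2 (2.13), Kcnk5 (2.04) and Itga6 (1.04). The transcription factors Tbx5 (1.57), Emx2 (1.51), Tbx15 (1.3), Osr1 (0.88) and the clock repressor Cry2 (1.21) belonged to this direction too. Stress and interferon genes were Hspa1b (1.56), Mt2 (1.54), Usp18 (1.67), Isg15 (0.88), Cdkn1a (0.80) and Asns (0.71). Enzymes and lipid genes were Akr1c18 (2.52), Plin4 (1.10), Fads1 (0.95), Abcd2 (0.85) and Lpl (0.55), and the complement component C6 had 2.01. The suprabasal gene Sbsn (1.58), the muscle actin Acta1 (1.41) and the microRNA gene Mir199b (0.75) completed this direction.

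A more negative difference in SAT was found for Cidea (-4.58), Hp (-3.42), Otop1 (-2.81), Pdk4 (-2.38), Col6a5 (-2.23), Matn2 (-2.08), Kdr (-1.95), Slit2 (-1.94), Gsta4 (-1.18), Myh11 (-0.79), Scp2 (-0.72) and Sparcl1 (-0.68).

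Several of these calls did not hold in every fit with 1 array left out. For Abcd2, Asns, Cdkn1a, Fads1, Has1, Il1r2, Isg15, Lpl, Metrnl, Mir199b, Osr1, Plin4, Scp2 and Sparcl1 the adjusted p was over 0.05 without at least 1 array. Its largest value was 0.124, for Lpl without AP replicate 2 of SAT, and Il1r2 was lost only without AP replicate 1 of SAT. Lpl, Scp2 and Osr1 were lost without any of many different arrays, so no single array decided them. The estimate for Lpl moved little, from 0.55 to 0.50 without AP replicate 2 and 0.59 without AP replicate 1 of SAT.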

How the results depend on the processing

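The numbers of genes that rose (3571) and fell (3615) and of differences between depots (476) stayed within 1.5 times under quantile normalization, cyclic loess, a filter on dim genes, other uses of probe sets and other variance models. The first 2 counts also did so in a fit on SAT alone, which holds no comparison of depots. They did so too without single arrays (2999 to 3324 rises and 3111 to 3473 falls without an array of SAT, 3505 to 3650 and 3548 to 3691 without an array of VAT). Demanding a log2 difference of at least 1 gave 1030, 1175 and 222 by its own construction. Scaling to the median of the housekeeping genes gave 16281, 939 and 179, and scaling to their mean 11379 rises and 2151 falls. Leaving out single arrays gave 264 to 626 differences between depots. With the replicate number as a fixed block (replicate block) the counts were 3468, 3545 and 417, and as a random block 3424, 3518 and 382. Cr2 and Ckm, which did not pass, reached 0.63 and 0.64 on scaling to the housekeeping median, and Saa3, which did not pass, had 1.72 without AP replicate 1 and -1.8 without AP replicate 3 of SAT (adjusted p = 0.0338 for the latter). Il1b, which did not pass either, had 1.05 without AT replicate 1 (adjusted p = 0.00887) and -1.52 without AT replicate 3. The causes were not tested beyond these settings. Signals near background in AP or AT limit single fold changes, and 3 arrays a group limit small ones.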

Other observations

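Some genes differed mainly between replicates of 1 group; they were chosen after their values were seen and no test is given. The median SD over 3 arrays was 0.114 for AP and 0.132 for AT across all genes. The serum amyloid gene Saa3, an acute phase protein, was at 4.73, 5.03 and 11.77 in AP and 7.09, 7.78 and 5.17 in AT. The iron-chelating lipocalin Lcn2 was at 5.10, 5.23 and 9.22 in AP, the phosphate hormone Fgf23 at 4.77, 4.43 and 8.06 and the protease inhibitor Serpinb2 at 3.64, 3.58 and 6.79. AP replicate 3 was the highest AP array for each of them, as it was for Ptx3, Timp1 and Prg4. In AT, the cytokine Il1b was at 8.81, 4.44 and 3.68 and the itaconate-making enzyme Acod1 at 6.58, 4.09 and 3.87. AT replicate 1, which also held the most Ucp1, was the highest AT array for both. The elongase of very long chain fatty acids Elovl3 was at 7.61, 4.88 and 4.06 and the respiratory subunit Cox7a1 at 9.25, 7.85 and 6.64 in AT, again with AT replicate 1 highest.

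Gene classes, also compared after their values were seen, differed in their shares of calls. Of 80 snoRNA genes, whose products guide the modification of ribosomal RNA, 40 rose (50%) and 3 fell (3.75%). Of 1926 lncRNA genes 4.31% rose and 4.88% fell, and of 18961 protein-coding genes 17.7% rose and 18.1% fell. Many snoRNA genes lie within host genes, and whether their probes read the host transcript was not tested.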
